A study of Mus musculus with 6 samples.

Results

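The genes described here encode the signalling system of the TGF-beta, BMP, activin and Nodal factors. The list names 40 genes, of which 13 encode ligands or ligand-processing factors, 6 antagonists, 8 receptors, 7 Smad proteins and 6 products of target genes. Each was read through the probe set that carries only its symbol and has the highest mean over the 6 arrays, and all 40 were measured, out of 19938 genes in the series. Each of the 40 had 1 such probe set.

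The samples are HM1 mouse embryonic stem (ES) cells, an established cell line, hybridised to 1 Affymetrix array each. The control group (3 arrays) received the empty pCAGIP.puro vector and the other group (3 arrays) the same vector carrying mouse Prmt6, a nuclear arginine methyltransferase. Both groups were transfected with Lipofectamine, kept for 3 days in puromycin at 1 μg/ml, and grown in 15% serum with LIF at 1000 U/ml, so serum, LIF, vector and selection are common to all arrays. The labels do not say whether the replicates were separate transfections, so p-values cover only the variation among these arrays, and part of it may be technical. Each array reads RNA of cells selected as a population in puromycin.

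In this system a dimeric ligand brings together type I and type II serine/threonine kinase receptors, which phosphorylate Smad proteins. Smad2 and Smad3 serve TGF-beta, activin and Nodal, Smad1 and Smad5 serve BMPs, Smad4 joins both branches, and Smad6 and Smad7 inhibit. In mouse ES cells, BMP activity in serum induces the Id genes, which act with LIF to hold back differentiation, whereas Nodal made by the cells drives expression of its own inhibitors, the Lefty genes.

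With the Prmt6 plasmid, 16 of the 40 genes rose, none fell past the threshold, and 24 did not pass (limma, Benjamini-Hochberg adjusted p under 0.05 over all genes). The rises were those of 7 ligand genes, 5 of the 6 target genes, 2 receptors, 1 Smad and 1 antagonist. Bmp1 (3.62-fold), Tgfb2 (2.78-fold), Bmp4 (2.34-fold) and Bmp2 (2.14-fold) changed most, and Id1, Id3, Msx2 and Tgfbi rose by 1.46-fold to 1.69-fold. Of the genes of the Nodal branch, Lefty2 rose (1.57-fold). Nodal, Gdf3 and Lefty1 lay lower in every overexpression array than in any control array without passing. Over all genes, 12.7% lay lower in this way, passing or not. For Lefty1 the groups nearly met, at 7.77 (highest overexpression value) and 7.78 (lowest control value).

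Over all genes 10.3% passed, 7.05% upward and 3.25% downward, against 40% of the members upward. With arrays centred on their medians, 1838 genes rose and 447 fell in place of 1405 and 647, and 17 members rose and none fell. At an unadjusted p under 0.05 in limma, 21 members were higher and 4 lower. The arrays of the groups did not overlap for 27 members, 22 of them higher and 5 lower, beside 29.7% of all genes (17.0% higher and 12.7% lower). The median change of the members was 0.21 on the log2 scale and that of all genes was 0. Members and groups of genes were chosen with earlier results of these data known, so these shares describe the list and were not tested as such. In these bulk samples, fewer cells of a type and less RNA per cell cannot be told apart, and the same holds for rises.

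**Figure D1:**
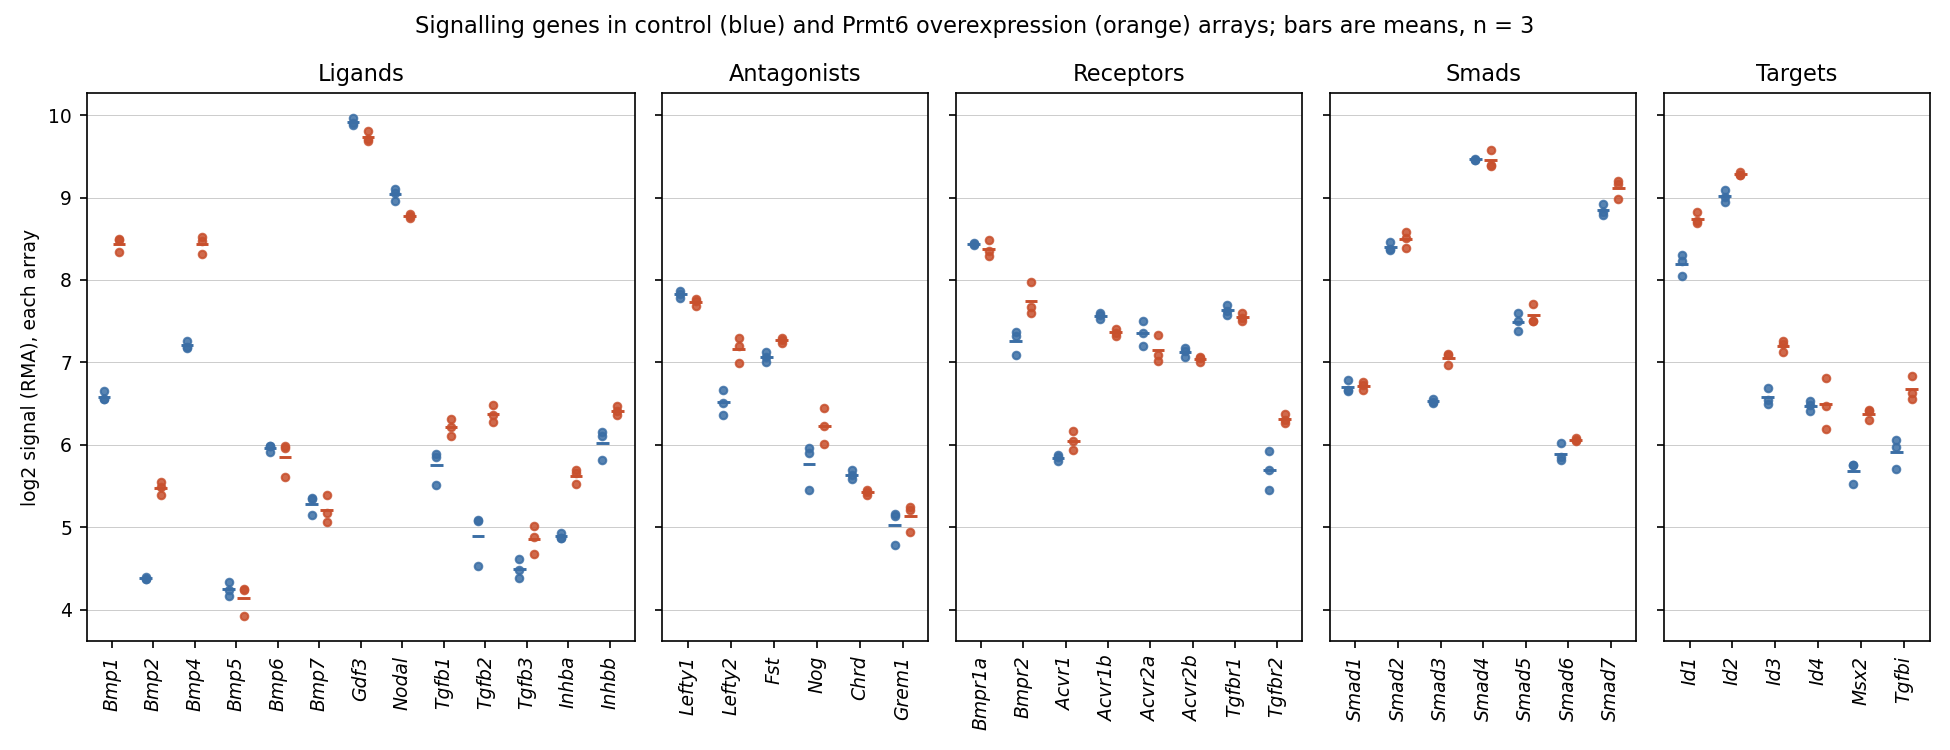
Deposited log2 signal of each of the 40 genes in every array, by role, with control arrays in blue, overexpression arrays in orange and short bars for the mean of 3 arrays. Bmp1, Bmp2, Bmp4 and Tgfb2 show the widest gaps between the groups, while the points of Bmp5, Bmp6, Bmp7, Smad1 and Smad4 overlap; signals of different genes are not comparable with each other.

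Among the ligand genes, Bmp1 had the largest change, though it encodes a metalloprotease, not a member of the TGF-beta family: it cleaves procollagens and the BMP antagonist chordin. Its log2 signals were 6.55, 6.65 and 6.55 in control and 8.34, 8.50 and 8.48 in overexpression. All 3 overexpression arrays lay far above all 3 control arrays, and Bmp1 rose by 1.86 ± 0.077 (log2, SE, n = 3 per group, limma adjusted p = 2.96e-06).

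Bmp4, a BMP ligand with roles in mesoderm and germ cell formation, read 7.19, 7.26 and 7.17 in control and 8.47, 8.52 and 8.31 in overexpression. Bmp2, its close relative, read 4.37, 4.37 and 4.40 in control and 5.55, 5.49 and 5.39 in overexpression. Neither gene had overlapping groups, and the rises were 1.23 ± 0.080 for Bmp4 and 1.10 ± 0.072 for Bmp2 (limma adjusted p = 3.72e-05 and 4.02e-05). Several members lie low on the array's scale. Among them are Bmp5, Tgfb3, Bmp2, Bmp7 and Inhba, at percentiles 18.2, 26.7, 31.6, 38.0 and 38.2 of mean signal over all genes. Tgfb2 was also low in control, with a mean of 4.90. Detection calls were not used here. A signal near background understates a fold change, and this limit also holds for the changes of Bmp5 and Bmp7 given next. The other BMP genes listed did not pass, with changes of -0.11 for Bmp5, -0.11 for Bmp6 and -0.07 for Bmp7. Their 95% intervals ran from -0.35 to 0.13, from -0.35 to 0.14 and from -0.31 to 0.16, all below the lower bounds of Bmp2 (0.93) and Bmp4 (1.04). The lowest overexpression value of each of Bmp5, Bmp6 and Bmp7 was that of replicate 1 (3.92, 5.61 and 5.06). Without that array their changes were -0.0017, 0.015 and 0 respectively.

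Of the 3 TGF-beta isoforms, secreted in latent form and activated outside the cell, Tgfb2 rose most. It read 5.09, 5.07 and 4.53 in control and 6.36, 6.28 and 6.48 in overexpression, with control replicate 3 apart from the other controls. The groups did not overlap, and the rise was 1.48 ± 0.15 (limma adjusted p = 0.000423), from 1.29 to 1.57 when each array was left out in turn. Tgfb1 read 5.85, 5.89 and 5.51 in control and 6.31, 6.21 and 6.11 in overexpression, a rise of 0.46 ± 0.11 (limma adjusted p = 0.0365). With 1 array left out, it no longer passed in 4 cases, at 0.0684 and 0.0899 (control replicates 1 and 3) and 0.100 and 0.101 (overexpression replicates 1 and 2). Tgfb3 read 4.38, 4.61 and 4.48 in control and 4.68, 4.88 and 5.01 in overexpression, at 0.37 ± 0.10 without passing (0.0608). It passed without overexpression replicate 1 (0.0304), with arrays centred on their medians (0.0245) and under quantile normalization (0.0241).

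Inhba and Inhbb encode the beta subunits of activins and inhibins. Inhba read 4.87, 4.87 and 4.93 in control and 5.66, 5.69 and 5.52 in overexpression, and rose by 0.73 ± 0.075 (limma adjusted p = 0.000501). Inhbb read 6.15, 6.11 and 5.82 in control and 6.41, 6.36 and 6.47 in overexpression. Its groups did not overlap but the gap was narrower than for Inhba, and the rise was 0.39 ± 0.099 (0.0427). The Inhbb call ended when any 1 array was left out, at 0.0594, 0.0759 and 0.119 without control replicates 1, 2 and 3 and 0.0900, 0.0901 and 0.0993 without overexpression replicates 1, 2 and 3.

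Nodal, the ligand that patterns the early embryo and is active in ES cells, read 8.96, 9.06 and 9.10 in control and 8.78, 8.80 and 8.75 in overexpression. Gdf3, a related ligand of pluripotent cells, read 9.88, 9.91 and 9.96 in control and 9.81, 9.71 and 9.69 in overexpression. In both genes every overexpression array was below every control array by a small margin. The differences were -0.26 ± 0.071 for Nodal (limma adjusted p = 0.0532) and -0.18 ± 0.071 for Gdf3 (0.162), and neither passed. Nodal passed downward with the dimmest 30% of genes removed (0.0224), under quantile normalization (0.0200) and with a trended and robust variance prior (0.00592). With arrays centred on their medians and without any 1 array it did not pass. Gdf3 passed downward under quantile normalization (0.0491) and with the trended and robust prior (0.0375).

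**Figure D2:**
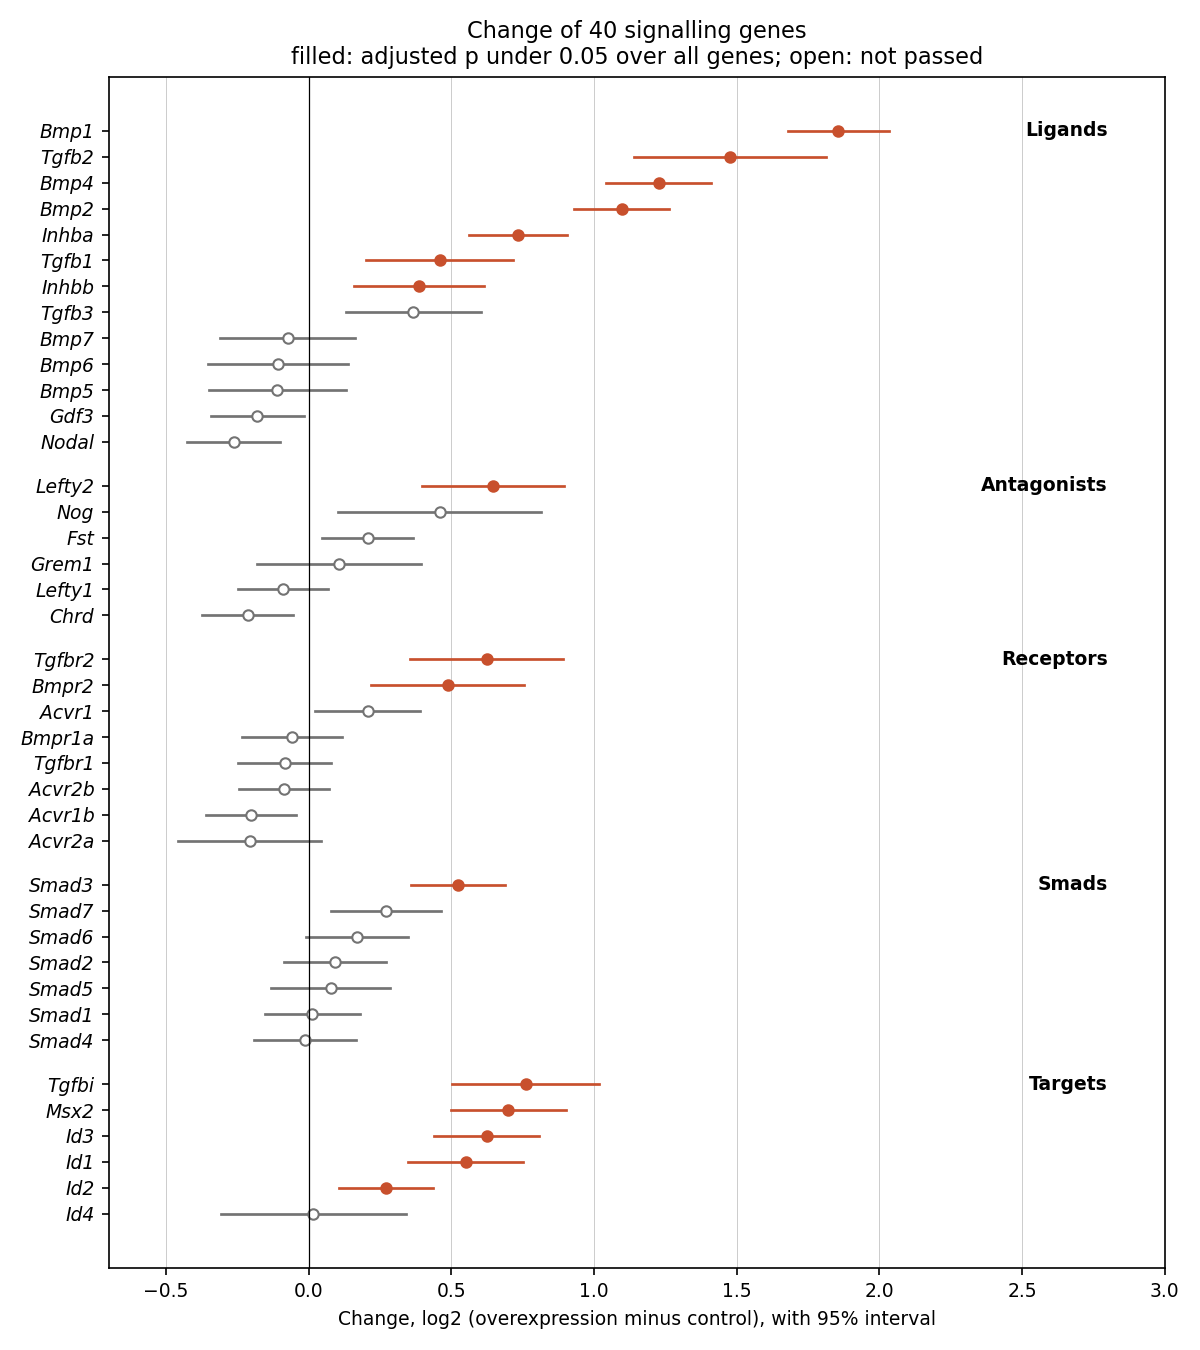
Change of each of the 40 genes on the log2 scale (overexpression minus control) with its 95% interval from limma, ordered within each role; filled orange points passed and open grey points did not. Bmp1 stands highest at 1.86 and Nodal lowest at -0.26.

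The antagonists bind ligands outside the cell. Lefty2, an inhibitor of Nodal, read 6.67, 6.36 and 6.51 in control and 7.29, 7.20 and 6.99 in overexpression. It was higher in all 3 overexpression arrays and rose by 0.65 ± 0.11 (limma adjusted p = 0.00677). Its paralog and near neighbour Lefty1, separated from it by 1 protein-coding gene in the reference annotation, read 7.83, 7.86 and 7.78 in control and 7.77, 7.68 and 7.75 in overexpression, at -0.09 ± 0.069 (0.486). The change of Lefty2 exceeded that of Lefty1 by 0.74 on the log2 scale, and the within-array difference did not overlap between the groups (two-sided exact permutation test, p = 0.10, also after adjustment over 3 gene pairs). That p is the smallest that 3 arrays against 3 allow, and the pair was chosen after its values were seen. The 2 genes are similar in sequence, so probes of one may take up signal of the other and their values are uncertain to that degree.

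Of the other antagonists, noggin (Nog) and follistatin (Fst) lay higher in all overexpression arrays without passing, at 0.46 ± 0.16 and 0.21 ± 0.070. Noggin, which blocks BMPs, read 5.45, 5.96 and 5.90 in control and 6.01, 6.23 and 6.45 in overexpression (limma adjusted p = 0.106), with control replicate 1 lowest. Without that array its change was 0.30 (0.270). It passed with the trended and robust variance prior (0.0346) and with the replicate number as a block (0.0335). Follistatin, which blocks activin, read 7.12, 7.06 and 7.00 in control and 7.24, 7.27 and 7.29 in overexpression (0.105). Chordin (Chrd), a BMP antagonist cleaved by the Bmp1 protease, lay lower in all overexpression arrays, at 5.43, 5.45 and 5.39 against 5.58, 5.70 and 5.63 in control. Its difference of -0.21 ± 0.070 did not pass (0.0979), though it did with the dimmest 30% of genes removed (0.0475). Grem1 overlapped between the groups, at 0.11 ± 0.13.

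Among the receptors, the type II receptors of TGF-beta and of BMPs rose. Tgfbr2 read 5.69, 5.93 and 5.45 in control, the widest spread of any receptor there, and 6.37, 6.30 and 6.27 in overexpression. It rose by 0.62 ± 0.12 (limma adjusted p = 0.0114) and passed in all 14 settings of the fit, at most at 0.0489. Bmpr2 read 7.09, 7.37 and 7.32 in control and 7.97, 7.60 and 7.67 in overexpression, a rise of 0.49 ± 0.12 (0.0348). Bmpr2 no longer passed with control replicate 1, 2 or 3 left out (0.122, 0.0567 and 0.0792), nor with overexpression replicate 1 or 3 left out (0.0696 and 0.0544).

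The type I receptors did not pass. Bmpr1a, which takes up BMP2 and BMP4, was at -0.06 with a 95% interval from -0.24 to 0.12, and Tgfbr1, the partner of Tgfbr2, at -0.08 with an interval from -0.25 to 0.08. Acvr1b, a type I receptor for activin and Nodal, read 7.60, 7.52 and 7.58 in control and 7.41, 7.32 and 7.36 in overexpression, lower in all 3 arrays at -0.20 ± 0.069 (limma adjusted p = 0.108). Acvr1, a BMP type I receptor, read 5.85, 5.80 and 5.88 in control and 6.17, 5.94 and 6.04 in overexpression, higher in all 3 arrays at 0.21 ± 0.081 (0.157). The activin type II receptors Acvr2a and Acvr2b overlapped between the groups, at -0.21 and -0.09. The change of Tgfbr2 exceeded that of Tgfbr1 by 0.71 (two-sided exact permutation test over the within-array differences, p = 0.10, the smallest possible, also adjusted over the 3 pairs). This pair too was chosen after its values were seen.

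Of the 7 Smad genes only Smad3, which carries TGF-beta and activin signals, rose. It read 6.51, 6.52 and 6.56 in control and 7.10, 6.97 and 7.09 in overexpression, and rose by 0.52 ± 0.071 (limma adjusted p = 0.00239). Smad2, with which it shares receptors, read 8.38, 8.36 and 8.46 in control and 8.58, 8.51 and 8.39 in overexpression, at 0.09 with a 95% interval from -0.08 to 0.27. The change of Smad3 exceeded that of Smad2 by 0.43, without overlap between the groups (two-sided exact permutation test, p = 0.10, the smallest possible, also adjusted over the 3 pairs, which were chosen after their values were seen). The BMP-branch Smad1 and Smad5 and the common Smad4 lay at 0.01, 0.08 and -0.01 with overlapping arrays. The 95% interval of Smad4 ran from -0.19 to 0.17, and that of Smad1 from -0.15 to 0.18. The sign of Smad4 turned with arrays centred on their medians (0.033).

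The inhibitory Smads, which are themselves induced by the pathway, were higher in all overexpression arrays without passing. Over all genes, 17.0% lay higher in every overexpression array than in any control array, passing or not. Whether pathway activity had a part in these 2 genes was not tested. Smad7 read 8.82, 8.79 and 8.92 in control and 9.20, 9.16 and 8.98 in overexpression, at 0.27 ± 0.084 (limma adjusted p = 0.0844). It passed without overexpression replicate 3 (0.0424), with the dimmest 30% of genes removed (0.0396) and with the trended and robust prior (0.0127). Smad6, the neighbour of Smad3 with no protein-coding gene between them in the reference annotation, read 5.81, 6.02 and 5.85 in control and 6.06, 6.08 and 6.05 in overexpression, at 0.17 ± 0.079 (0.230).

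The target genes moved together apart from Id4. Id proteins bind basic helix-loop-helix factors and keep them off DNA, and Id1 to Id3 are induced directly by BMP Smads. Id1 read 8.23, 8.30 and 8.05 in control and 8.69, 8.71 and 8.83 in overexpression. Id3 read 6.54, 6.69 and 6.50 in control and 7.22, 7.12 and 7.26 in overexpression. Id2 read 9.09, 8.94 and 9.01 in control and 9.27, 9.31 and 9.27 in overexpression. In all 3 genes every overexpression array lay above every control array, and the rises were 0.55 ± 0.088 for Id1, 0.62 ± 0.081 for Id3 and 0.27 ± 0.072 for Id2 (limma adjusted p = 0.00543, 0.00186 and 0.0493). The Id2 call ended when any 1 array was left out, at 0.0876, 0.177 and 0.151 without control replicates 1, 2 and 3 and 0.0696, 0.133 and 0.0828 without overexpression replicates 1, 2 and 3. It also ended under quantile normalization (0.0943). Id4 read 6.41, 6.48 and 6.53 in control and 6.19, 6.81 and 6.47 in overexpression, so that its overexpression arrays lay on both sides of the controls (0.02 ± 0.14).

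Msx2, a homeobox gene induced by BMPs, read 5.76, 5.75 and 5.52 in control and 6.30, 6.42 and 6.41 in overexpression. Tgfbi, which encodes a matrix protein named for its induction by TGF-beta, read 5.97, 6.06 and 5.71 in control and 6.83, 6.63 and 6.56 in overexpression. The groups did not overlap in either gene, and the rises were 0.70 ± 0.088 for Msx2 and 0.76 ± 0.11 for Tgfbi (limma adjusted p = 0.00159 and 0.00353). Both passed in all 14 settings.

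The promoters of the target genes are shown because these members moved together while Id4 did not. Windows of 300 bases, from 250 before to 50 after the annotated start, came from RefSeq on GRCm38.p6 and were found for 27 of the 40 members, with Bmp1, Bmp2, Bmp7, Gdf3, Tgfb3, Lefty1, Lefty2, Fst, Nog, Smad2, Smad4, Smad7 and Id1 not among them. They were searched for GGCGCC, a GC-rich motif bound by BMP Smads, and for GTCTAGAC, the palindromic Smad motif. Both read the same on either strand and cannot overlap. Capitals mark the motif, and each sequence runs 5′ to 3′ on the gene's strand.
Id2, chr12:25096043-25096342, minus strand: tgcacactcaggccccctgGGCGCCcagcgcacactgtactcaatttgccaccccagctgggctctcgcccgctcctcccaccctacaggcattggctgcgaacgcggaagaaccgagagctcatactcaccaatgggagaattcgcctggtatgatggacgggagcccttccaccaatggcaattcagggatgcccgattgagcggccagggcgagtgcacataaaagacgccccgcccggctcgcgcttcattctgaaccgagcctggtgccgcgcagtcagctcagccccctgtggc
Id3, chr4:136143572-136143871, plus strand: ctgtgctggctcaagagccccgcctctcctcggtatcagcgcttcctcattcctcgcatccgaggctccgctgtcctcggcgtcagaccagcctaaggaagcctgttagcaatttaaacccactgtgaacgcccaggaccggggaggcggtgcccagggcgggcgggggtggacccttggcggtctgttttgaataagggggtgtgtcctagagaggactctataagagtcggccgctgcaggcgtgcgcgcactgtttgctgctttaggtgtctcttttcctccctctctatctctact
Id4, chr13:48260866-48261165, plus strand: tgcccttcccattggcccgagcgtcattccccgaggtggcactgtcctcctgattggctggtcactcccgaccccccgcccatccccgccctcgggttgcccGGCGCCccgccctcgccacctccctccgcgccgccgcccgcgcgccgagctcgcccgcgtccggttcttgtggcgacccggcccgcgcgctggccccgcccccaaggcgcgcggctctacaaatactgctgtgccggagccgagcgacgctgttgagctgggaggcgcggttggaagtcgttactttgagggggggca
Msx2, chr13:53472731-53473030, minus strand: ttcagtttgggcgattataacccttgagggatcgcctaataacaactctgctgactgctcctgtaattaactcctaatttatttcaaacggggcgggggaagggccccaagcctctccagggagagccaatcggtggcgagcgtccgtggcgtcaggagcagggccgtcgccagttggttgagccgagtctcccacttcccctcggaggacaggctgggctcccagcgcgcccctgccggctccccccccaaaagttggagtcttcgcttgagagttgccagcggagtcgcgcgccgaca
Tgfbi, chr13:56609336-56609635, plus strand: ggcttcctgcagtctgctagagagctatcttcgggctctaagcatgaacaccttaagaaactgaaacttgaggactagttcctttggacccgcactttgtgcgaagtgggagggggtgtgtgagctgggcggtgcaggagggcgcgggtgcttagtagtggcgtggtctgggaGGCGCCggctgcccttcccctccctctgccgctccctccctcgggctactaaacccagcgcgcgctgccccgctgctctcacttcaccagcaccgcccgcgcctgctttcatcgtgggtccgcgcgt

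The windows printed for Id2, Id4 and Tgfbi each held 1 GGCGCC, starting 231, 148 and 77 bases before the start site. Those printed for Id3 and Msx2 held none. The display gives 1 window per gene, while the counts below use every window found. So the letters were present for Id4, which did not pass, and absent for Id3 and Msx2, which rose. Sites outside these 300 bases were not searched, and Id1 had no window. Whether Smad sites play a part in the changes was not tested. Of all 32851 windows, 11.9% held GGCGCC. Of the 27 members with a window, 10 held it. These were 3 of 12 that passed (Bmpr2, Id2 and Tgfbi) and 7 of 15 that did not (Acvr1b, Bmpr1a, Chrd, Grem1, Id4, Smad5 and Tgfbr1). The 27 members have 30 windows, and a member counted if any of its windows held the motif. The share of windows and the count of members are therefore in unlike units. The members' windows were richer in G and C than the table, with a median of 65.7% against 52.7%. GTCTAGAC was in 0.213% of all windows and in 1 member's, that of Smad6. A motif match describes these letters only and says nothing about binding.

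Outside the 40 members, a further list of 90 genes of the pathway was examined, of which 84 were measured. Of these, 20 rose (23.8%), 2 fell (2.38%) and 62 did not pass, with a median change of 0.06. Over all genes 7.05% rose and 3.25% fell. By role, 5.88% of ligands, 16.7% of antagonists and 28.6% of ligand processing and latency genes rose. So did 25% of Smad regulators and 60% of targets, while 20% of receptors fell. The ligand share was below that of all genes. The further list holds genes already known to rise in these arrays (Acta2, Tagln, Thbs1, Cdkn2b, Fn1, Col1a1 and Col1a2 among them). Its counts and shares therefore do not stand as independent evidence. Of 17 further ligands only Bmp8b rose (1.50 ± 0.12, limma adjusted p = 9.51e-05). Its paralog Bmp8a was at 0.16 (0.277), and the pair can share probe signal.

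Genes that make or release active ligand rose in 4 of 14 cases and none fell past the threshold, with 1 lower at an unadjusted p under 0.05 in limma. These were Thbs1 (2.63 ± 0.071), an activator of latent TGF-beta, Ltbp1 (1.18 ± 0.072), which holds latent TGF-beta in the matrix, Itgav (1.07 ± 0.067), the alpha subunit of integrins that bind it, and Furin (1.03 ± 0.083), the protease that cuts the precursors (limma adjusted p from 4.28e-07 to 0.000125). Among 12 further antagonists Nbl1, a secreted BMP inhibitor (1.23 ± 0.10), and Fstl1, a secreted glycoprotein related to follistatin (0.36 ± 0.068), rose. Fstl1 (0.0114) did not pass with control replicate 1 or 3 left out (0.0602 and 0.0508).

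Of 10 further receptors and co-receptors none rose past the threshold (also 0 higher at an unadjusted p under 0.05 in limma), and Eng and Tdgf1 fell. Eng, the co-receptor endoglin, fell by 0.51 ± 0.089 (limma adjusted p = 0.00812). Tdgf1, the Nodal co-receptor Cripto, fell by 0.35 ± 0.072 (0.0183), which did not hold with control replicate 1, 2 or 3 left out (0.0511, 0.0627 and 0.0864) or overexpression replicate 2 left out (0.0534). Nodal and Gdf3, described above, were also lower in all 3 overexpression arrays but did not pass.

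Among 16 Smad partners and regulators, 4 rose: Zeb2, a Smad-binding repressor (0.88 ± 0.095), Ldlrad4 and Pmepa1, related membrane proteins that restrain Smad2 and Smad3 (0.73 ± 0.087 and 0.69 ± 0.075), and Smurf1, a ubiquitin ligase for Smads (0.40 ± 0.071). The Smurf1 call (limma adjusted p = 0.00942) ended without control replicate 1 (0.0525). The corepressors Ski and Skil lay at -0.14 and -0.20, and Foxh1, the Smad partner in Nodal signalling, at 0.18, none of them past the threshold. Of 15 further genes induced by the pathway 9 rose, led by Acta2 (4.53 ± 0.088), Tagln (3.29 ± 0.078), Cdkn2b (1.51 ± 0.080) and Ccn1 (1.35 ± 0.081). Many of these genes respond to other signals as well. Ccn2 was at 0.23 ± 0.070 (0.0792), and Junb, Hey1, Atoh8, Msx1 and Dlx3 did not pass either, between -0.15 and 0.13.

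**Figure D3:**
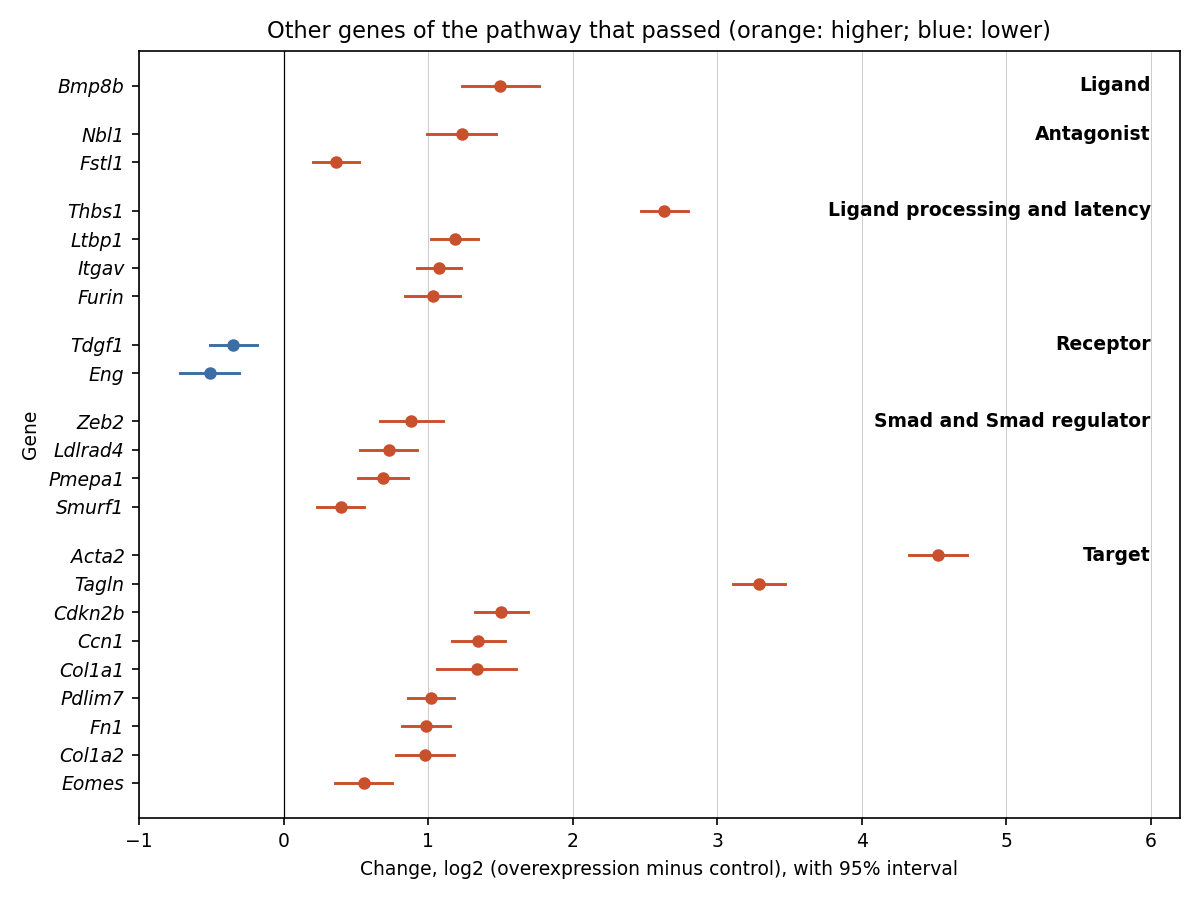
Change on the log2 scale (overexpression minus control) with its 95% interval for the 22 other pathway genes that passed, by role; the 62 that did not pass are not drawn. Rises (orange) run from 0.36 for Fstl1 to 4.53 for Acta2, and Eng and Tdgf1 (blue) are the falls.

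Several measurements moved with the groups beside these genes. Prmt6 read 6.84, 6.58 and 7.12 in control and 7.32, 7.40 and 7.33 in overexpression, a rise of 0.50 ± 0.13 (limma adjusted p = 0.0406) that held without control replicate 3 (0.0108) and was lost without any 1 of the other arrays (0.0788 to 0.119), with the replicate block (0.0615) and with every probe set fitted on its own (0.112). Of 12 ES cell markers none rose past the threshold, 3 fell (Nanog, Sox2 and Tdgf1), and 9 did not pass. At an unadjusted p under 0.05 in limma 2 were higher, Pou5f1 (0.19) and Klf2 (0.22). Changes were positive for 6 of the 12 and negative for 6. Their summed linear signal was 21860 to 22860 in control and 21830 to 21970 in overexpression. Nanog and Sox2 did not pass when any 1 control array was left out (limma adjusted p between 0.0552 and 0.163), nor did Sox2 when any 1 overexpression array was (between 0.0549 and 0.105).

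Of 12 fibroblast markers 6 rose, led by Col1a1 (1.34), Col1a2 (0.98) and Pdgfrb (0.47), and the sum went from 506 to 546 in control to between 769 and 826 in overexpression. The Pdgfrb call ended without control replicate 1 (limma adjusted p = 0.0567). Col1a1 and Col1a2 had the highest signals and the largest changes of this list. They therefore weigh most in the fibroblast sum, and no sum without them was taken. Thy1 (0.04), Lum (0.06), S100a4 (-0.02), Prrx1 (-0.10), Postn (0.22) and Twist1 (0.22) did not pass. Of 12 primitive endoderm markers 5 rose, led by Cubn (0.94), Dab2 (0.77) and Sox17 (0.58), with sums of 464 to 482 and 568 to 603. Foxa2, Hnf4a, Sox7 and Afp lay between -0.04 and 0.05 and did not pass. Amn (-0.15, the lowest of this list), Ttr (0.14) and Gata4 (0.26) did not pass either. Dab2 was at 0.48 with its probe sets averaged, and still passed (limma adjusted p = 0.00344). The Sox17 call ended without any 1 control array (0.0634 to 0.0869). Of 11 trophoblast markers 6 rose, led by Krt18 (3.22), Krt7 (2.34) and Hand1 (0.98), with sums of 942 to 992 and 3726 to 4013, or 594 to 628 and 756 to 794 without Krt7 and Krt18. Elf5, Tfap2c and Ascl2 did not pass (-0.25, -0.22 and -0.06), nor did Cdx2 and Gata3 (0.26 and 0.52). Tfap2c was lower in all 3 overexpression arrays, and Cdx2 and Gata3 were higher. Of 11 primitive streak and mesoderm markers 2 rose, Tbx20 (0.89) and Mixl1 (0.54), and 9 did not pass. In this list 5 changes were positive and 5 negative, with a median of 0, and Gsc (-0.15) and Kdr (-0.14) were lowest. Its sums overlapped between the groups, at 520.8 to 541.8 in control and 541.3 to 612.6 in overexpression. Tdgf1, Col1a1, Col1a2 and Eomes stand in a marker list and in the further pathway list. Over all genes 7.05% rose past the threshold and 3.25% fell, the shares to set beside the counts of the marker lists. Signals on this array have no true zero, so that no marker reads as absent. Their part in the changes of the signalling genes was not tested.

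The 12 rises of Bmp1, Bmp2, Bmp4, Tgfb2, Inhba, Lefty2, Tgfbr2, Smad3, Id1, Id3, Msx2 and Tgfbi passed in all 14 settings of the fit. The 4 of Tgfb1, Inhbb, Bmpr2 and Id2 did not. The 14 include the main fit, and averaging probe sets could not change a member's values, since each member has 1 probe set. Leaving out single arrays gave 12 to 14 members past the threshold. Within groups the SD of a member ran from 0.0058 (Smad4) to 0.32 (Tgfb2) in control, with a median of 0.074, and from 0.015 (Smad6) to 0.31 (Id4) in overexpression, with a median of 0.093 (log2, n = 3 each). Overexpression replicate 1 was the highest of its group for 18 of the 40 members and replicate 3 the lowest for 16.

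**Figure D4:**
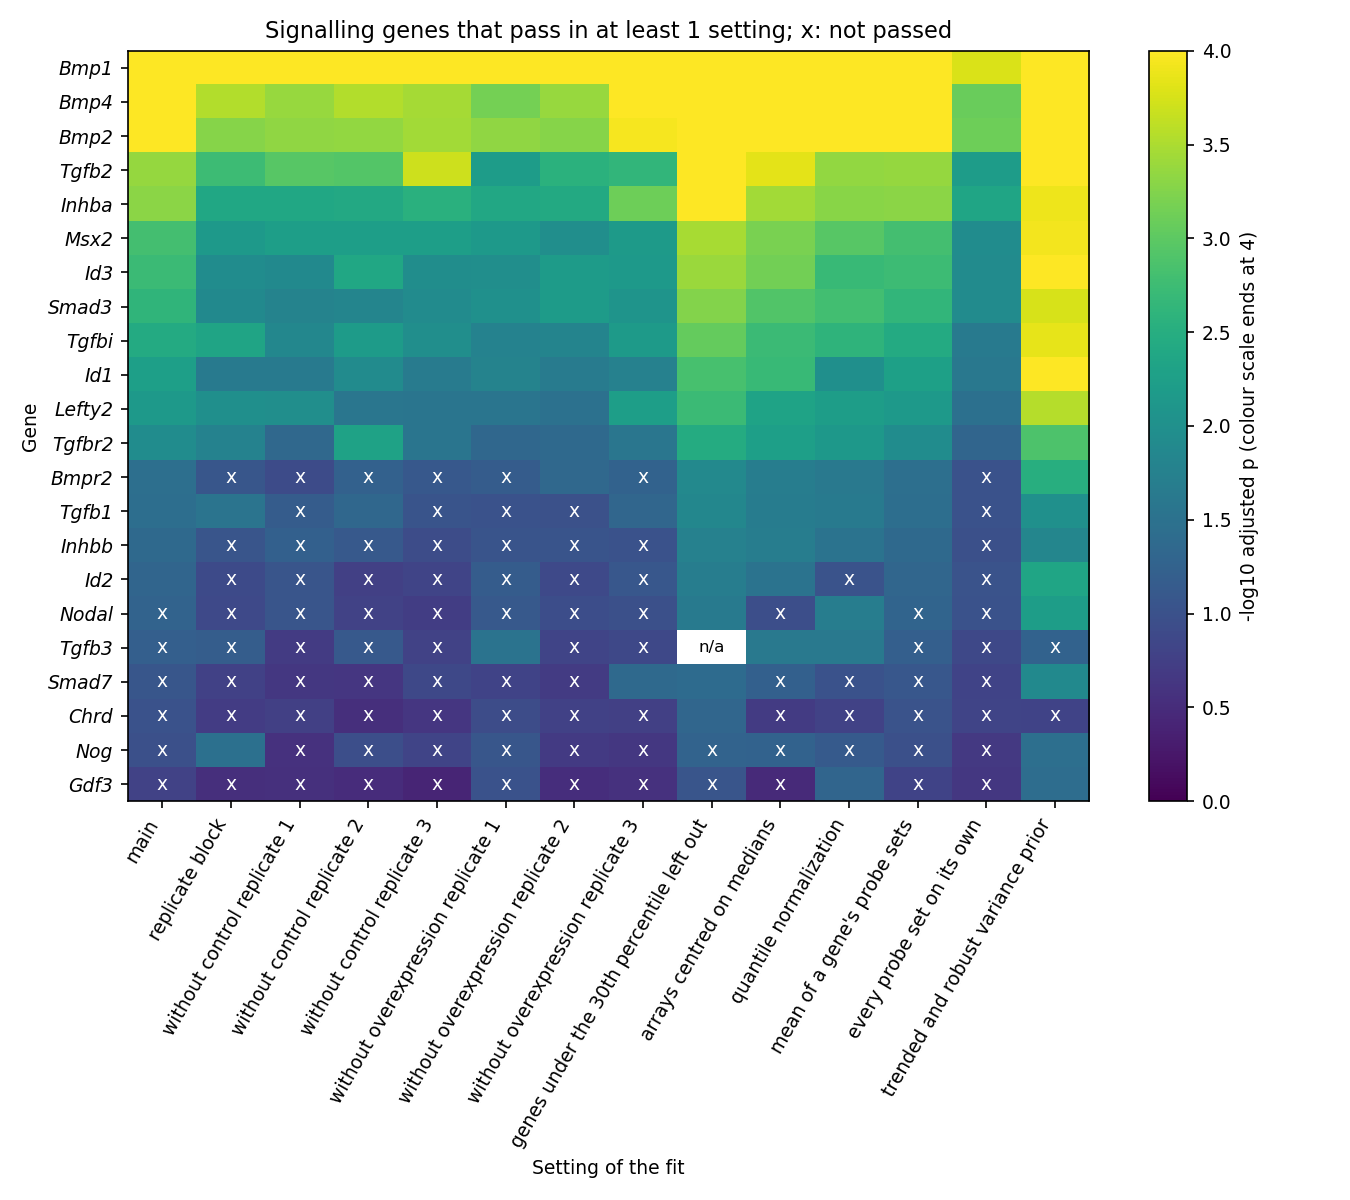
Adjusted p of the 22 members that passed in at least 1 of 14 settings, as -log10 in colour (the scale ends at 4), with settings in columns; an x marks a setting in which the gene did not pass, and n/a one in which it was left out. The upper 12 genes carry no x, while Bmpr2, Tgfb1, Inhbb and Id2 lose their call in several columns.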

How the data were processed

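The authors deposited log2 signals per probe set for 6 arrays, processed with RMA per the submitters' processing notes. RMA corrects background, equalizes the arrays and summarizes probes, so a shift common to most genes would mostly be lost. The RMA version is not given in the sources used here. There were 35556 probe sets, with array medians from 5.54 to 5.62. The platform annotation of 2016 gave 1 symbol to 21789 of them, several to 1621 and none to 12146. The number of arrays limits the precision.

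Groups came from the sample titles. Overexpression was compared with control by limma 3.58.1 in R 4.3.3 (constant variance prior, no filter, no covariates, two-sided), adjusted over 19938 genes by Benjamini-Hochberg at 0.05. The procedure was tested on simulated data. The labels give no pairing beyond the replicate number. Correlations of deviations ran from -0.117 to -0.0158 between arrays of the same number. Between arrays of different numbers they ran from -0.1 to 0.114. With 3 arrays a group, such values cannot settle whether samples were paired. The main fit used no block. Alternatives were a block, leaving out each array, a 30th percentile filter, median centring, quantile normalization, the mean of probe sets, each probe set on its own, and a trended and robust prior. Intervals are 95%. Named genes were all members, Prmt6, in each role of the further list up to 4 passing genes with the largest change, and up to 3 such markers per list. Others were chosen after their values were seen. Promoters came from RefSeq and figures from matplotlib 3.10.9. Members and lists were chosen with earlier results of these data known. Of the 90 further genes and the markers, those not measured on a single-symbol probe set were not analysed here.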

Additional observations from a re-analysis of the deposited data

How the results depend on the processing

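Of the 40 members, 16 rose with all arrays and the settings described, and 12 to 20 were past the threshold in either direction under the alternatives, with 12 of the 16 shared in every setting. No member fell past the threshold except 2 with the dimmest 30% of genes removed, 2 under quantile normalization and 2 with the trended and robust prior. Rises of the further pathway genes numbered 18 to 23, and falls 1 with the replicate block, 1 to 3 when single arrays were left out and 4 with the trended and robust prior. Over all genes, rises numbered 1405 and falls 647. Leaving out single arrays gave 862 to 1232 rises, lowest without control replicate 1, and 280 to 763 falls, with 280, 321 and 297 without control replicates 1, 2 and 3 and 328 without overexpression replicate 2. Fitting every probe set gave 913 and 296, the replicate block 1018 and 383, the 30th percentile filter 1832 and 990, and the trended and robust prior 2061 and 1115. Median centring gave 1838 and 447. It moved the median of all genes by 0.0467. With the replicate block, for which the labels give no pairing beyond the number, 14 members passed: Inhbb (0.0878), Bmpr2 (0.0852) and Id2 (0.127) were lost and Nog (0.0335) was gained. Signs turned only in members that did not pass. With single arrays left out, changes ran from -0.175 to 0.015 for Bmp6, -0.165 to 0 for Bmp7, -0.017 to 0.203 for Grem1, -0.013 to 0.057 for Smad1, -0.078 to 0.022 for Smad4 and -0.14 to 0.17 for Id4. The sign turned for Bmp6 without overexpression replicate 1 (Bmp7 came to 0 there), for Grem1 without control replicate 2, for Smad1 without control replicates 2 and 3 and overexpression replicate 3, for Smad4 without overexpression replicates 2 and 3, and for Id4 without control replicate 1 and overexpression replicate 2. That of Smad4 also turned with median centring (0.033). The causes were not tested. With 3 arrays a group, no exact test of a single value can go below 0.10.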
